A study of Mus musculus with 12 samples.

Results

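The genes described here are 45 members of the mitotic machinery of mouse cells, chosen by gene symbol from the 54532 genes of the deposited table. They comprise the kinases that drive mitosis, the kinetochore and spindle checkpoint, the chromosomal passenger complex, spindle and cytokinesis factors, condensin I with topoisomerase, and a pair of transcription factors of the G2 and M phases. All 45 passed the filter on low counts, as did 15122 genes in all. C2C12 cells, an immortalized line of mouse myoblasts that can fuse into myotubes, were transfected with 30 nM of control siRNA (siCONTROL), siRNA targeting Keap1 (siKEAP1) or Ccnf (siCCNF), or the pair combined (siKEAP1/siCCNF), and poly(A) RNA was sequenced 48 hours later. Each of the 4 groups had 3 libraries, biological replicates per the study, so that every group carried a transfection and differed only in the siRNA. KEAP1 is the substrate adaptor of the E3 ligase that turns over the antioxidant factor NRF2, and CCNF (cyclin F) is a substrate adaptor of the SCF ubiquitin ligase. The labels do not say how the 30 nM were divided in the double depletion, which of the Ccnf siRNAs named by the study was sequenced is not stated, and 1 cell line was used.

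Entry into mitosis is driven by CDK1 bound to cyclin B, which CDC25 phosphatases activate, and is followed by the work of Polo-like and Aurora kinases on centrosomes, kinetochores and the midzone. Kinetochores are built on centromeric chromatin marked by CENP-A, bind microtubules through the NDC80 complex, and hold back the anaphase-promoting complex through the spindle checkpoint until every chromosome is attached. Condensin shapes chromosomes, and most of these genes are transcribed in G2 and M phase by the MuvB complex together with B-MYB (Mybl2) and FOXM1, through promoter elements named CHR and CCAAT.

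Libraries held 18464209 to 37743198 counts: 18464209 to 22231732 in siCONTROL, 21346088 to 24601929 in siKEAP1, 26039296 to 37743198 in siCCNF and 22825576 to 32216830 in siKEAP1/siCCNF, so that all siCCNF libraries were deeper than all siCONTROL and siKEAP1 libraries. Values are given as CPM, counts scaled to the same library total, scaled by TMM factors that lay between 0.971 and 1.02. Keap1 stood at 14.4% of its siCONTROL mean after siKEAP1 and at 27.5% after siKEAP1/siCCNF, and Ccnf at 25.3% after siCCNF and at 30.2% after siKEAP1/siCCNF. Ccnf also stood at 73.2% of control after siKEAP1 alone. Within their groups, siCONTROL replicate 1 and siKEAP1/siCCNF replicate 3 were low in long transcripts (Pearson r of deviation and log length across genes, which are not independent replicates, -0.305 and -0.276), and calls against siCONTROL that these libraries decided are named below with the values without them. The summed level of 6 myoblast markers was 1416 to 1597 CPM in siCONTROL libraries and 759 to 909 CPM in all others, that of 10 myotube markers 83.6 to 193 CPM in siCONTROL, 5.19 to 5.30 CPM in siKEAP1, 30.4 to 44.3 CPM in siCCNF and 14.9 to 17.4 CPM in the siKEAP1/siCCNF libraries. Of the siCONTROL libraries, replicate 1 held the 193 CPM of myotube markers, against 83.6 and 86.7 CPM in replicates 2 and 3. The 6 fibroblast and adipocyte markers summed to 311 to 403, 153 to 159, 1085 to 1224 and 503 to 558 CPM in siCONTROL, siKEAP1, siCCNF and siKEAP1/siCCNF. The 5 leukocyte markers summed to 11.2 to 13.9 CPM and the 4 epithelial markers to 10.6 to 16.9 CPM in siCONTROL, against 27.6 to 33.2 and 41.5 to 46.5 CPM after siKEAP1, and the 4 endothelial markers stood at 0 to 1.38 CPM throughout. These sums hide members that moved apart after siKEAP1. Log2 differences ran from -1.84 to 1.69 among the 3 fibroblast and adipocyte markers that passed the filter. They ran from -0.48 to 2.90 among 3 leukocyte markers and from -0.18 to 1.75 among 2 epithelial markers that passed it. Mitochondrially encoded transcripts took 2.16 to 2.24% of counts in siCONTROL and 2.73 to 3.83% in the depleted libraries. The part of these shifts in the results below was not tested.

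Each depletion lowered most of the mitotic genes, siCCNF most and siKEAP1 least, and 19 of the 45 were higher in siKEAP1/siCCNF than in siCCNF, a count that moved with single libraries. The 45 genes together made up 6426 to 6714 CPM in the siCONTROL libraries, 4787 to 4846 CPM after siKEAP1, 3466 to 3876 CPM after siCCNF and 4107 to 4470 CPM after siKEAP1/siCCNF. The 4 groups did not overlap in this sum. Bulk RNA cannot tell fewer cells in G2 and M phase from less RNA per cell.

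After siCCNF, 44 of the 45 genes were lower than in siCONTROL at an adjusted p under 0.05 (edgeR, quasi-likelihood F test, adjusted by Benjamini and Hochberg's method over all genes tested), where 25.5% of all genes tested were called lower. Of these, 17 fell more than 2-fold, against 6.76% of all genes. None was higher, at an unadjusted p under 0.05 or by DESeq2 or limma either (22.5% of all genes were higher). The median log2 difference was -0.96, against 0.01 over all genes tested. After siKEAP1, 37 were lower (20.2% of all genes) and 2 of them, Spc24 and Mybl2, more than 2-fold (3.88%), while 0 were higher by any of the same tests (20.4% of all genes). The median was -0.45, against -0.01 over all genes. After siKEAP1/siCCNF, 41 were lower (23.6% of all genes), 2 of them, Cdc25b and Cenpa, more than 2-fold (5.54%), and again 0 were higher by any of these tests (20.6% of all genes). The median was -0.67, against 0.01. All 3 comparisons share the siCONTROL libraries. Counted by libraries, all 3 siCCNF libraries lay below all 3 siCONTROL libraries for 44 of the genes (28.6% of all genes tested), as did the siKEAP1 libraries for 40 (25.7%) and the siKEAP1/siCCNF libraries for 40 (25.3%).

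**Figure D1:**
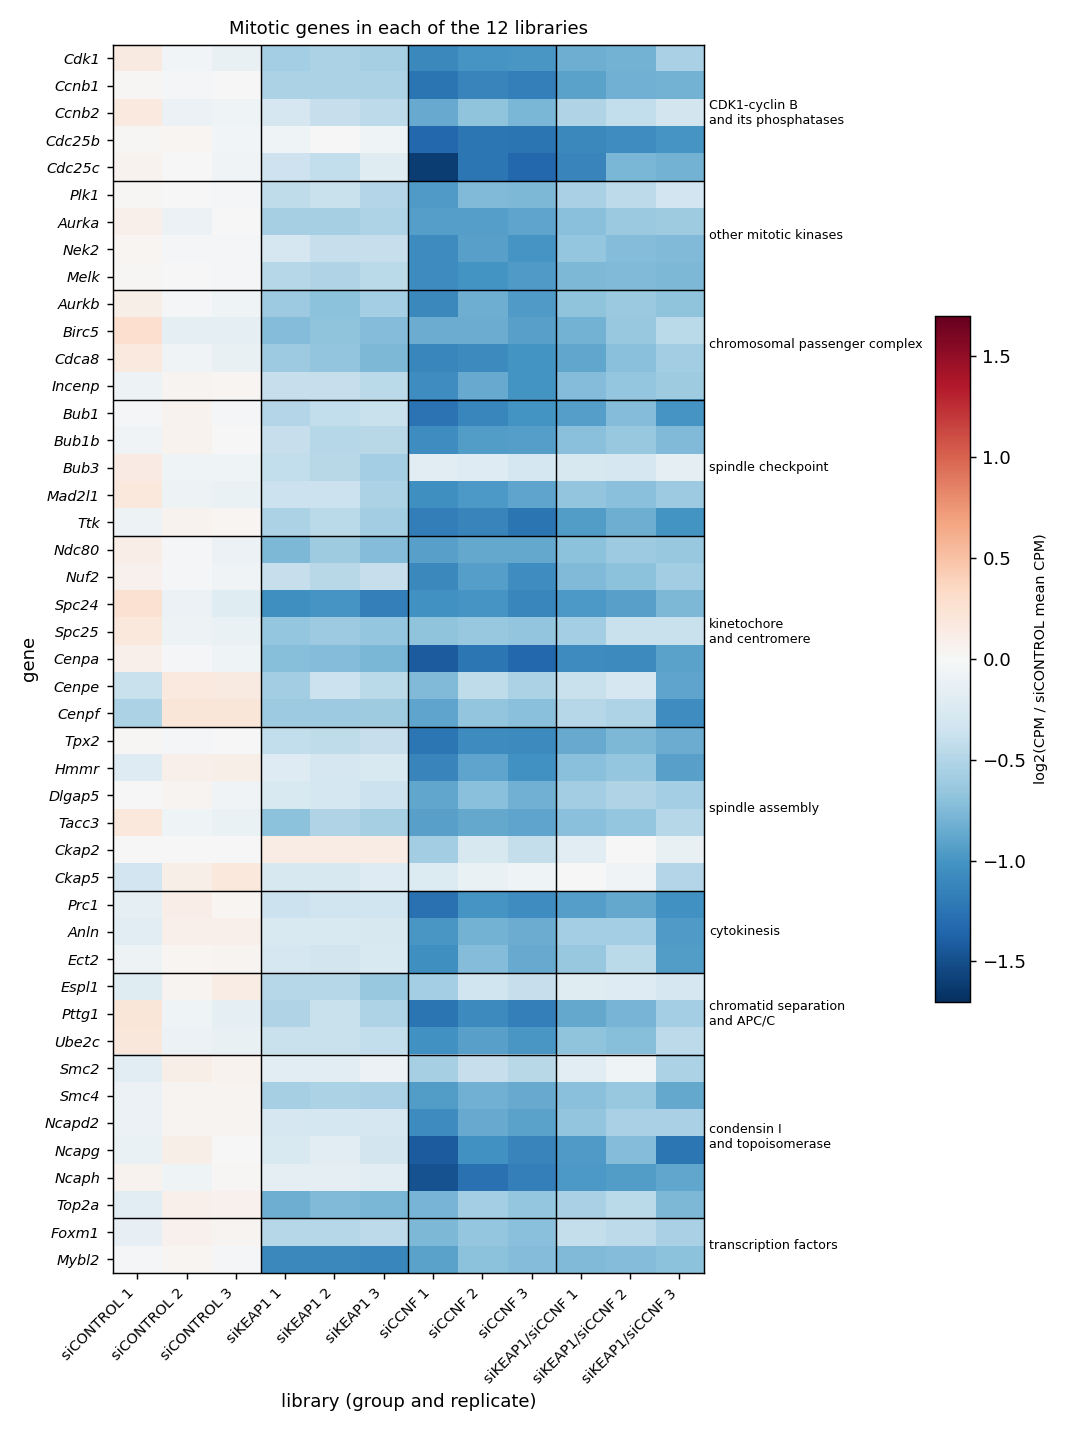
Each row is 1 of the 45 genes, grouped by role, and each column 1 of the 12 libraries; the colour is the log2 ratio of the gene's CPM to its siCONTROL mean. The siCCNF columns are the darkest for most rows, and Bub3 and Ckap5 are the palest rows there.

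**Figure D2:**
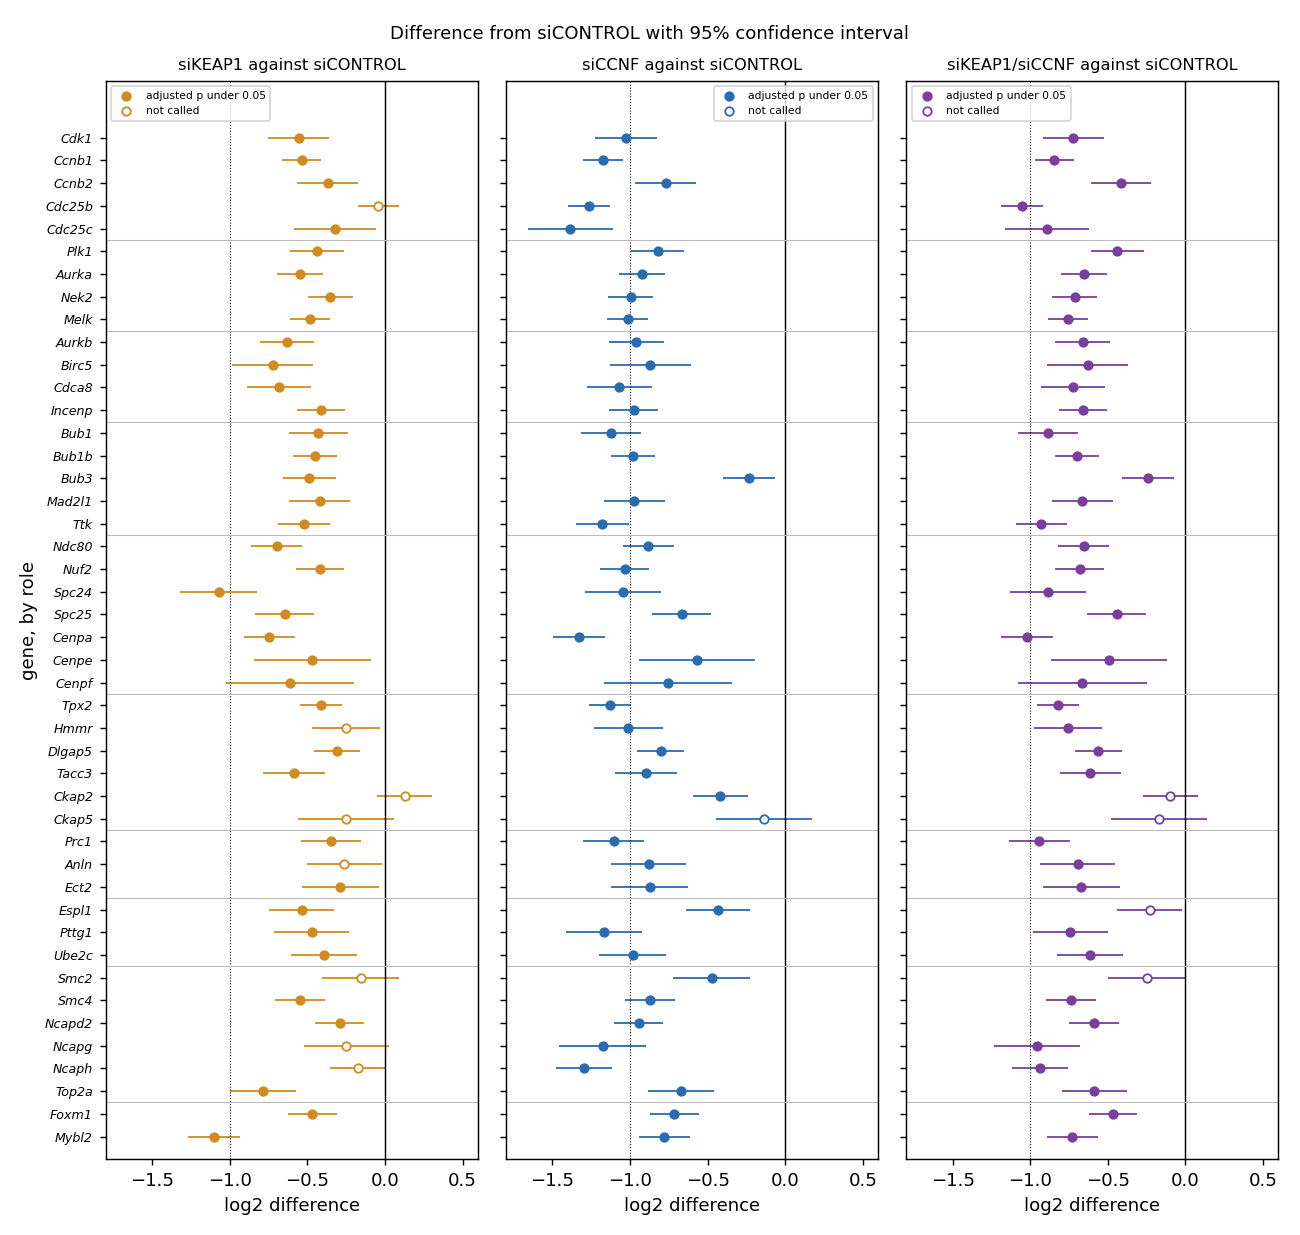
Log2 difference from siCONTROL (points) with its 95% confidence interval (lines) for each gene, in 3 panels for siKEAP1, siCCNF and siKEAP1/siCCNF; filled points passed an adjusted p under 0.05, and the dotted line marks a 2-fold fall. Filled points number 37, 44 and 41 of 45.

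The promoters of the set share sequence features that the choice of genes did not use. Windows from 250 bases before to 50 bases after the start, from RefSeq on GRCm38.p6, were at hand for 37 of the genes (40 windows); Cdc25c, Aurkb, Incenp, Spc24, Tpx2, Dlgap5, Smc4 and Foxm1 had none. The CHR hexamer TTTGAA, at which MuvB binds, was found on either strand in 27 of 40 windows (67.5%) and in 17.9% of all 32851 windows. CCAAT, the box bound by NF-Y, was in 30 windows (75%) and in 37.4% of all. Both lay together in 25 windows (62.5%) and in 6.95% of all. TGACNNNGC, the core of the antioxidant response element that NRF2 reads, was in 10 windows (25%) and in 12.4% of all, and the E2F sites TTTCCCGC or TTTGGCGC in 2 windows (5%), those of Ncapg and Ncapd2, and in 1.56% of all. In the 13482 windows of genes tested the shares were 12% for CHR, 37.7% for CCAAT and 4.81% for both. They were 14.1% for the antioxidant core and 2.8% for the E2F sites. Related lists differed widely in CHR, which was in 80% of the 5 windows of other cytokinesis genes, 69.2% of the 13 of other spindle genes, 50% of the 4 of condensin II, 34.4% of the 32 of other kinetochore genes, 16.7% of the 18 of the anaphase-promoting complex, 12.5% of the 32 of replication genes (28 of 36 genes had a window) and 7.14% of the 14 of other mitotic entry genes. A match describes the letters only. Other spellings of the CHR and E2F sites were not searched, so a window without a match may still hold such a site. Genes with a CHR match (n = 24) had a median log2 difference of -0.88 after siCCNF and -0.44 after siKEAP1, and those with a window but no match (n = 13) -1.02 and -0.47.

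Stretches from 120 bases before to 30 bases after the start are shown first for genes that hold both the CHR hexamer and CCAAT. Of these, Cdk1 and Ccnb2 share the role of mitotic entry, and the rest are 1 gene each of other roles. Mybl2, Cdc25b and Ncaph follow, whose windows hold no CHR match and whose responses differ from each other. All stretches run 5′ to 3′ along the gene, in lower case, with each CHR hexamer and CCAAT box in capitals, also where it lies on the opposite strand and so reads as its reverse complement. On GRCm38.p6 they lie, in the order shown, at chr10:69352883-69353032 (minus strand), chr9:70421525-70421674 (minus), chr4:124936888-124937037 (minus), chr9:83834569-83834718 (plus), chr5:30666766-30666915 (plus), chr11:40733408-40733557 (minus), chr7:80294331-80294480 (plus), chr2:164769809-164769958 (plus), chr11:99024160-99024309 (minus), chr2:163054515-163054664 (plus), chr2:131186828-131186977 (plus) and chr2:127133925-127134074 (minus).
Cdk1: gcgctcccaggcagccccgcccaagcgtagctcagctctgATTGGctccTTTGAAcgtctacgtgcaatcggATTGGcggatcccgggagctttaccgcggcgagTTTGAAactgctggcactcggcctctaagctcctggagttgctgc
Ccnb2: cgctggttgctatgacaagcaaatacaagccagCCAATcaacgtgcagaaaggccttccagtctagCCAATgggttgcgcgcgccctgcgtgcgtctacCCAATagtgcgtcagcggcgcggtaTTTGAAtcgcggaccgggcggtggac
Cdca8: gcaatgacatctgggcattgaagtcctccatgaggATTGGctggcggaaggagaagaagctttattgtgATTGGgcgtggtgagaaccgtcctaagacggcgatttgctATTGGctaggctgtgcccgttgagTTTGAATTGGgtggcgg
Ttk: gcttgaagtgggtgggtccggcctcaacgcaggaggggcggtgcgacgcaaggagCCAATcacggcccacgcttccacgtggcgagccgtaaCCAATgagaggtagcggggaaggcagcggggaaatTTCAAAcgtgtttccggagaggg
Cenpa: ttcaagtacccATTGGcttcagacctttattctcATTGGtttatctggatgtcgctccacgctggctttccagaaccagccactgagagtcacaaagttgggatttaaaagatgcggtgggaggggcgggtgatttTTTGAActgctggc
Hmmr: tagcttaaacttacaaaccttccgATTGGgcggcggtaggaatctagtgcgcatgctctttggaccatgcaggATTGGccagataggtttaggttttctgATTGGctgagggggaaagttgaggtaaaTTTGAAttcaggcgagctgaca
Prc1: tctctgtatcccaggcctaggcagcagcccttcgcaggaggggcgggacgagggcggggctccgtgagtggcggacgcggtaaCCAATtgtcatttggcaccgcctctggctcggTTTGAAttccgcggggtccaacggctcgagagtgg
Ube2c: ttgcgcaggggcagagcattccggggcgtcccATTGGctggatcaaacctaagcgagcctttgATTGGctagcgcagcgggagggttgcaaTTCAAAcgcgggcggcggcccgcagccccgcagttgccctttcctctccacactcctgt
Top2a: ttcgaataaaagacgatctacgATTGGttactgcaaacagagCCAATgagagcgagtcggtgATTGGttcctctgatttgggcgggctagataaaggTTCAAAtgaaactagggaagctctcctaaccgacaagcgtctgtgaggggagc
Mybl2: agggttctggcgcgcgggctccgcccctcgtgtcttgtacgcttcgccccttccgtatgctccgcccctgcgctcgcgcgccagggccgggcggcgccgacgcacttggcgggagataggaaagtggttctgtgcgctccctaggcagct
Cdc25b: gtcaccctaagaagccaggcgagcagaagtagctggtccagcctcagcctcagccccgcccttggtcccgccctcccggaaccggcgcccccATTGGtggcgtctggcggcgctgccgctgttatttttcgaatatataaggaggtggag
Ncaph: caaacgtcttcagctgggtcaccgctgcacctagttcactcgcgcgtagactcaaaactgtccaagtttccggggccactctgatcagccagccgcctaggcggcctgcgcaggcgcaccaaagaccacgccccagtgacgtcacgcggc
In the first 9 a CHR match stands within 30 bases of the start, on either side, and CCAAT boxes stand upstream of it. Cdca8 carries a CCAAT box that overlaps the hexamer, and the Cdk1 promoter has a further CHR match between its CCAAT boxes. By the spellings searched, the Cdc25b stretch holds a CCAAT box alone, and those of Mybl2 and Ncaph neither.

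CDK1, cyclin B and the CDC25 phosphatases form the switch of mitotic entry. All 5 genes were lower after siCCNF (median -1.18), 4 after siKEAP1 (median -0.37) and all 5 after siKEAP1/siCCNF (median -0.84). Cdk1, the catalytic subunit, stood at 232, 202 and 191 CPM in siCONTROL, 140, 144 and 141 after siKEAP1, 97.6, 104 and 105 after siCCNF, and 117, 120 and 142 after siKEAP1/siCCNF. Ccnb1, encoding cyclin B1, stood at 186, 182 and 183 CPM, then 127, 127 and 127, then 77.9, 84.1 and 82.3, and 98.0, 104 and 105 in the same order. For both genes every depleted library lay below every siCONTROL library, and the siCCNF libraries were the lowest. Cdk1 differed from siCONTROL by -0.56 (SE 0.09, adjusted p = 0.00017) after siKEAP1 and by -1.03 (SE 0.09, adjusted p = 7.5e-07) after siCCNF on the log2 scale, and Ccnb1 by -0.53 (SE 0.05) and -1.18 (SE 0.06). Ccnb2, encoding cyclin B2, had the smallest fall of the group after siCCNF, with 162, 135 and 137 CPM in siCONTROL, 119, 110 and 107 after siKEAP1, 79.5, 90.4 and 84.6 after siCCNF, and 101, 108 and 116 after siKEAP1/siCCNF (log2 difference -0.77 after siCCNF, SE 0.08, adjusted p = 8.1e-06).

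The CDC25 genes, whose phosphatases remove the inhibitory phosphates of CDK1, had the deepest falls of the switch after siCCNF. Cdc25c, the least abundant of the group, stood at 25.6, 24.7 and 23.6 CPM in siCONTROL, 19.4, 18.4 and 21.4 after siKEAP1, 8.10, 10.5 and 9.82 after siCCNF, and 11.3, 14.4 and 14.1 after siKEAP1/siCCNF. Its log2 difference after siCCNF, -1.38 (SE 0.12, adjusted p = 8.7e-07), was the largest fall of the 45 genes, while that after siKEAP1 (-0.32, SE 0.11, adjusted p = 0.039) lost its call when siCONTROL replicate 1 or 2 or siKEAP1 replicate 1 or 2 was left out, with adjusted p up to 0.13. Cdc25b stood at 130, 131 and 124 CPM in siCONTROL and 122, 129 and 122 after siKEAP1, which overlap, but at 51.0, 54.8 and 54.0 after siCCNF and 59.9, 61.8 and 63.9 after siKEAP1/siCCNF. Its log2 difference was -0.04 (SE 0.06, adjusted p = 0.59) after siKEAP1 and -1.27 (SE 0.06, adjusted p = 7.3e-09) after siCCNF. The direct comparison of siCCNF with siKEAP1 gave -1.22 for Cdc25b (SE 0.06, adjusted p = 2.2e-09), the largest such difference among the 45 genes.

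**Figure D3:**
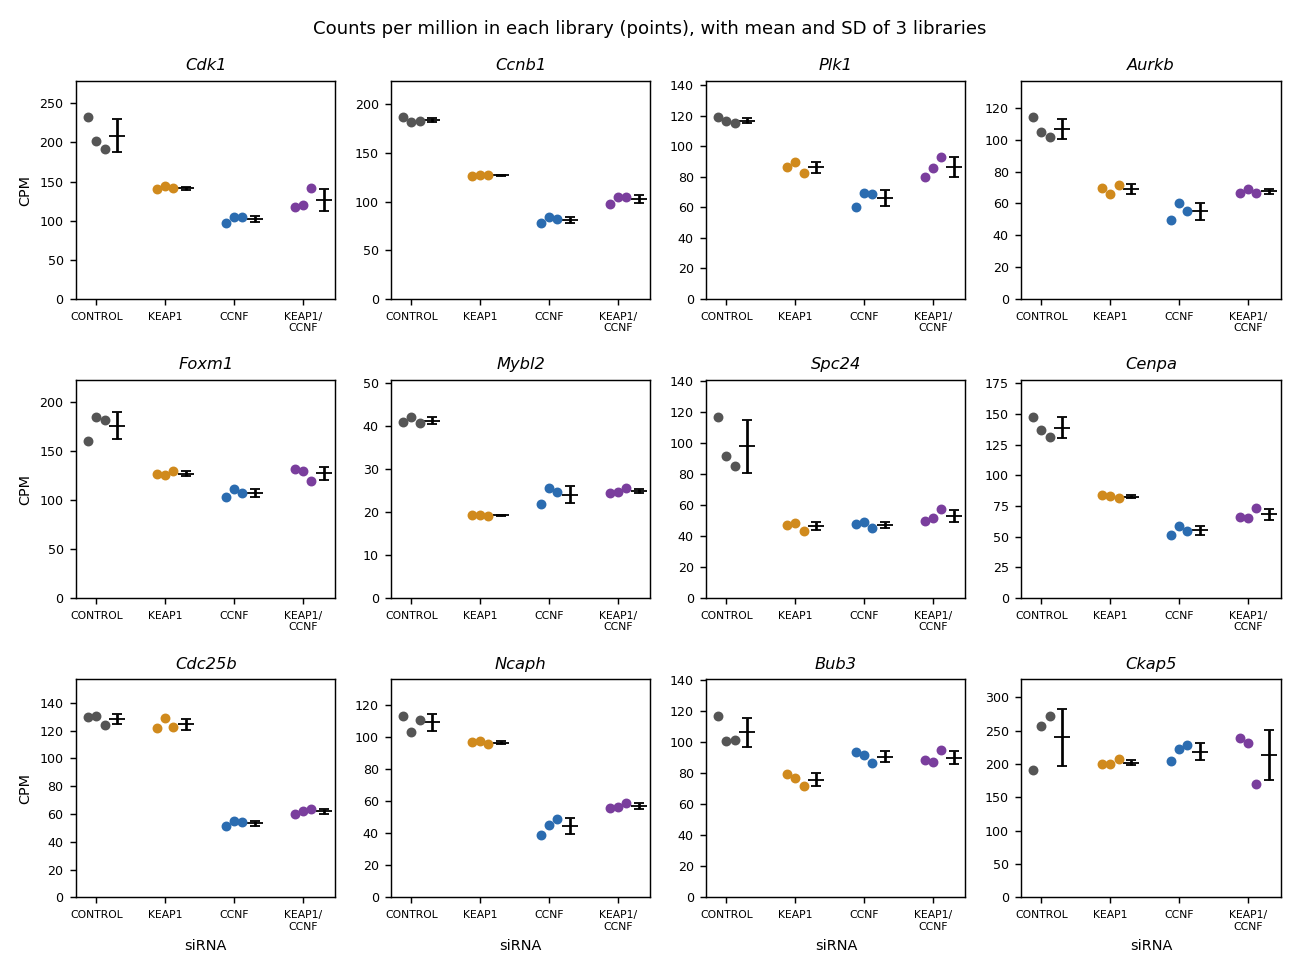
CPM of 12 genes in each of the 3 libraries per siRNA group (points), with the mean and SD of the group (bars beside them). Cdc25b and Ncaph stay near the siCONTROL level after siKEAP1 and fall after siCCNF, Mybl2 is lowest after siKEAP1, and Ckap5 overlaps in all groups.

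The other mitotic kinases fell together. All 4 were lower in each depletion, with medians of -0.46 after siKEAP1, -0.96 after siCCNF and -0.68 in the double depletion. Plk1, the Polo-like kinase of centrosome maturation and kinetochores, stood at 119, 117 and 115 CPM in siCONTROL, 86.4, 89.6 and 82.7 after siKEAP1, 60.1, 69.3 and 68.9 after siCCNF, and 79.8, 85.8 and 92.8 after siKEAP1/siCCNF. Its siKEAP1/siCCNF libraries overlapped the siKEAP1 libraries and lay above all siCCNF libraries. Melk, a kinase of the AMPK family expressed in mitosis, stood at 78.7, 78.5 and 76.2 CPM in siCONTROL, 55.8, 54.5 and 56.6 after siKEAP1, 37.2, 38.5 and 39.8 after siCCNF, and 45.7, 46.4 and 45.8 after siKEAP1/siCCNF. No groups overlapped for Melk, and its log2 difference after siCCNF was the largest of the kinases at -1.02 (SE 0.06, adjusted p = 2.5e-08), against -0.82 (SE 0.07, adjusted p = 1.5e-06) for Plk1, the smallest. Aurka, the centrosomal Aurora kinase, and Nek2, which splits centrosomes, lay between them, at 52.8% and 50.2% of the control mean after siCCNF.

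The chromosomal passenger complex, which corrects microtubule attachment and later directs cytokinesis, was lower for all 4 of its genes in each depletion. The medians were -0.66 after siKEAP1, -0.97 after siCCNF and -0.66 in the double depletion. Aurkb, its kinase, stood at 114, 105 and 102 CPM in siCONTROL, 69.6, 65.8 and 71.6 after siKEAP1, 49.9, 60.2 and 55.0 after siCCNF, and 66.7, 69.3 and 66.5 after siKEAP1/siCCNF. Cdca8, encoding borealin, stood at 108, 92.5 and 88.2, then 62.8, 60.7 and 56.6, then 44.8, 45.3 and 47.5, and 52.3, 58.6 and 63.8 CPM. In both genes the siKEAP1/siCCNF libraries overlapped those of siKEAP1 alone and lay above all siCCNF libraries. Birc5, encoding survivin, stood at 180, 132 and 132 CPM in siCONTROL, 88.7, 92.2 and 88.8 after siKEAP1, 82.9, 82.9 and 78.3 after siCCNF, and 84.8, 95.4 and 108 after siKEAP1/siCCNF. Its siCONTROL replicate 1 stood above the other libraries of its group, and its fall after siCCNF (-0.87, SE 0.11, adjusted p = 3.8e-05) was the smallest of the complex. Incenp, the scaffold, was at 75.1%, 50.8% and 63.2% of control after siKEAP1, siCCNF and siKEAP1/siCCNF.

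The spindle checkpoint genes were lower for all 5 members in each depletion, with medians of -0.45 after siKEAP1, -0.98 after siCCNF and -0.70 in the double depletion. Ttk, the kinase MPS1 that starts the checkpoint, stood at 67.5, 74.6 and 73.2 CPM in siCONTROL, 49.6, 52.4 and 47.8 after siKEAP1, 31.7, 33.1 and 30.4 after siCCNF, and 37.1, 40.4 and 35.6 after siKEAP1/siCCNF. No groups overlapped, and the siCCNF difference of -1.18 (SE 0.07, adjusted p = 5.7e-08) was the largest of the checkpoint. Bub3, which ties the BUB kinases to the kinetochore and is expressed beyond mitosis, departed from the rest with 117, 101 and 101 CPM in siCONTROL, 79.3, 76.6 and 71.4 after siKEAP1, 93.4, 91.6 and 86.7 after siCCNF, and 88.2, 87.1 and 94.6 after siKEAP1/siCCNF. It was lowest after siKEAP1 (-0.49, SE 0.07, adjusted p = 0.00015) and only a little below control after siCCNF (-0.23, SE 0.07, adjusted p = 0.019), a call lost without siCONTROL replicate 1 (adjusted p = 0.063) or siCCNF replicate 3 (0.082), and its call after siKEAP1/siCCNF (-0.24, SE 0.07, adjusted p = 0.017) was lost without siKEAP1/siCCNF replicate 1 (0.055) or 2 (0.053). Bub1, Bub1b and Mad2l1, which encode the BUB1 and BUBR1 kinases and the MAD2 inhibitor of the anaphase-promoting complex, stood at 73.2 to 74.7% of control after siKEAP1 and at 45.9 to 51.0% after siCCNF.

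Kinetochore and centromere genes were lower for all 7 members in each depletion, with medians of -0.65 after siKEAP1, -0.88 after siCCNF and -0.66 in the double depletion. Cenpa, the histone variant that marks centromeres, stood at 148, 137 and 131 CPM in siCONTROL, 83.7, 83.1 and 81.3 after siKEAP1, 51.8, 58.9 and 55.0 after siCCNF, and 66.0, 65.7 and 73.6 after siKEAP1/siCCNF. Its fall after siCCNF was the deepest of the 45 genes after that of Cdc25c (-1.33, SE 0.07, adjusted p = 2.1e-08), to 39.9% of control. Spc24, of the NDC80 complex, stood at 117, 91.4 and 85.1 CPM in siCONTROL but at 47.4, 48.7 and 43.6 after siKEAP1, 48.1, 48.9 and 45.2 after siCCNF, and 49.9, 51.4 and 57.6 after siKEAP1/siCCNF. Its siKEAP1 and siCCNF libraries overlapped, with falls of -1.07 (SE 0.11, adjusted p = 4.2e-06) and -1.05 (SE 0.11, adjusted p = 4.2e-06), and the direct comparison gave 0.03 (95% confidence interval -0.22 to 0.28, adjusted p = 0.85). Ndc80, the subunit that contacts microtubules, stood at 95.7, 86.9 and 82.3 CPM, then 51.8, 58.3 and 53.2, then 46.6, 48.5 and 48.5, and 54.3, 57.5 and 56.5. Spc25 fell by 0.65 after siKEAP1 and by 0.67 after siCCNF on the log2 scale, with a direct difference of -0.02 (95% confidence interval -0.21 to 0.17, adjusted p = 0.86), whereas Nuf2 fell by 0.42 and by 1.03, with a direct difference of -0.61 (SE 0.07, adjusted p = 5.4e-06).

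Some calls of the large genes Cenpe, the kinetochore motor, and Cenpf, a component of the outer kinetochore, depended on single libraries. Cenpe stood at 110, 160 and 159 CPM in siCONTROL, 94.8, 112 and 104 after siKEAP1, 85.3, 106 and 98.6 after siCCNF, and 110, 117 and 77.1 after siKEAP1/siCCNF. In siCONTROL replicate 1 and siKEAP1/siCCNF replicate 3 it was lower than in the other libraries of their groups, and the siKEAP1 and siKEAP1/siCCNF groups overlapped siCONTROL. The difference after siCCNF was the smallest of the kinetochore genes at -0.57 (SE 0.16, adjusted p = 0.011), with the call lost without siCCNF replicate 1 (adjusted p = 0.054). Without both libraries low in long transcripts the siCCNF difference was -0.73 (SE 0.08) for Cenpe and -0.96 (SE 0.05) for Cenpf, against -0.75 for Cenpf with them. The calls after siKEAP1 were lost without siCONTROL replicate 2 or 3 for both genes (adjusted p 0.11 to 0.12 for Cenpe and 0.059 to 0.063 for Cenpf), and for Cenpe also without any of the siKEAP1 libraries (0.051 to 0.11). After siKEAP1/siCCNF the call of Cenpe was lost without siCONTROL replicate 2 or 3 or siKEAP1/siCCNF replicate 3 (0.081 to 0.093).

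Of the 6 spindle genes, 3 were lower after siKEAP1 (median -0.28), 5 after siCCNF (median -0.85) and 4 after siKEAP1/siCCNF (median -0.59). Tpx2, the activator of Aurora A on spindle microtubules, stood at 226, 218 and 222 CPM in siCONTROL, 167, 164 and 169 after siKEAP1, 94.5, 105 and 104 after siCCNF, and 122, 131 and 124 after siKEAP1/siCCNF. None of its groups overlapped, and its fall after siCCNF (-1.13, SE 0.06, adjusted p = 1.5e-08) was the deepest of the spindle genes. Ckap5, the microtubule polymerase chTOG, which cells use outside mitosis too, stood at 192, 257 and 273 CPM in siCONTROL, 200, 200 and 207 after siKEAP1, 204, 223 and 229 after siCCNF, and 239, 232 and 170 after siKEAP1/siCCNF. All of its groups overlapped siCONTROL, and no difference from control passed the test (-0.25, -0.14 and -0.17, SE 0.13), although it is a long transcript and without siCONTROL replicate 1 the differences after siKEAP1 (adjusted p = 0.012) and siKEAP1/siCCNF (adjusted p = 0.034) passed. Without both libraries low in long transcripts all 3 differences of Ckap5 passed, at -0.40 (SE 0.05, adjusted p = 4.7e-06) after siKEAP1, -0.28 (SE 0.05, adjusted p = 0.00015) after siCCNF and -0.18 (SE 0.05, adjusted p = 0.012) after siKEAP1/siCCNF. Ckap2, a spindle-associated protein, was at 109% of control after siKEAP1 (0.13, SE 0.08, adjusted p = 0.21) and at 74.8% after siCCNF (-0.42, SE 0.08, adjusted p = 0.00058). It alone of the members had all siKEAP1 libraries above all siCONTROL libraries, which 25.8% of all genes tested had. Hmmr, Dlgap5 and Tacc3, which organize spindle microtubules, stood at 49.6%, 57.4% and 53.7% of control after siCCNF. After siKEAP1 the difference of Hmmr (-0.25, SE 0.10, adjusted p = 0.051) was not called but passed in 7 of 22 alternatives, among them without siCONTROL replicate 1 (-0.36, adjusted p = 0.0028), without siKEAP1/siCCNF replicate 2 (0.0497) or 3 (0.026), and without both libraries low in long transcripts (3.9e-05).

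The cytokinesis genes depended on siCCNF more than on siKEAP1. All 3 were lower after siCCNF (median -0.88) and siKEAP1/siCCNF (median -0.69), and 2 after siKEAP1 (median -0.29). Prc1, which bundles midzone microtubules, stood at 129, 156 and 148 CPM in siCONTROL, 112, 114 and 115 after siKEAP1, 60.0, 71.8 and 69.6 after siCCNF, and 75.8, 79.2 and 70.7 after siKEAP1/siCCNF. Ect2, the exchange factor that activates RhoA at the cleavage furrow, stood at 113, 122 and 124, then 97.8, 96.2 and 99.5, then 58.2, 71.7 and 65.6, and 76.3, 86.5 and 61.7 CPM. In both genes all depleted libraries lay below all siCONTROL libraries. The siCCNF difference was -1.11 (SE 0.08, adjusted p = 3.3e-07) for Prc1 and -0.87 (SE 0.11, adjusted p = 2.2e-05) for Ect2. The siKEAP1 call of Ect2 (-0.29, SE 0.11, adjusted p = 0.048) was lost in 11 of 22 alternatives, with adjusted p up to 0.12, 7 of which left out a library: siCONTROL replicate 2 or 3, any siKEAP1 library, siCCNF replicate 3 or siKEAP1/siCCNF replicate 1. Anln, encoding the contractile ring scaffold anillin, stood at 83.3% of control after siKEAP1 and at 54.4% after siCCNF. Its siKEAP1 difference (-0.26, SE 0.10, adjusted p = 0.061) was not called but passed in 6 of 22 alternatives, among them without siCONTROL replicate 1 (-0.36, adjusted p = 0.0098), without siKEAP1/siCCNF replicate 3 (0.012) and without both libraries low in long transcripts (9.8e-06).

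Genes of chromatid separation split. Pttg1, encoding securin, stood at 70.5, 57.9 and 54.4 CPM in siCONTROL, 42.6, 47.0 and 42.2 after siKEAP1, 25.7, 28.7 and 27.1 after siCCNF, and 33.3, 35.1 and 41.0 after siKEAP1/siCCNF. Espl1, encoding separase, which securin inhibits, stood at 105, 124 and 131 CPM, then 85.7, 85.8 and 76.5, then 80.3, 95.1 and 91.3, and 104, 104 and 98.8. Securin mRNA fell by 1.17 (SE 0.11, adjusted p = 1.5e-06) on the log2 scale after siCCNF and separase mRNA by 0.43 (SE 0.09, adjusted p = 0.0015). After siKEAP1 they fell by 0.47 and by 0.54, and after siKEAP1/siCCNF the difference of Espl1, -0.23 (SE 0.09), did not pass the test (adjusted p = 0.054), although it did without siCONTROL replicate 1 (0.0032) or siCCNF replicate 1 (0.044) and without both libraries low in long transcripts (0.0024). Ube2c, the ubiquitin-conjugating enzyme of the anaphase-promoting complex, was at 76.3%, 50.6% and 65.3% of control.

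Condensin I subunits and topoisomerase responded unevenly. All 6 genes were lower after siCCNF (median -0.91), 3 after siKEAP1 (median -0.27) and 5 after siKEAP1/siCCNF (median -0.66). Ncaph, the kleisin that closes the condensin ring, stood at 113, 103 and 111 CPM in siCONTROL, 97.0, 97.4 and 95.4 after siKEAP1, 39.2, 45.1 and 48.8 after siCCNF, and 55.6, 56.5 and 59.0 after siKEAP1/siCCNF. Smc2, an ATPase that condensin I shares with condensin II, stood at 191, 230 and 226, then 190, 190 and 201, then 146, 164 and 156, and 191, 205 and 148 CPM. Ncaph fell by 1.30 (SE 0.08, adjusted p = 4.5e-08) on the log2 scale after siCCNF, against 0.47 (SE 0.11, adjusted p = 0.0027) for Smc2, and neither difference passed the test after siKEAP1 (-0.18 and -0.16). For Ncaph the siKEAP1 difference passed without siCCNF replicate 1 (adjusted p = 0.031) or 3 (0.049) and with the length trend removed (0.010). For Smc2 it passed without both libraries low in long transcripts (-0.25, SE 0.05, adjusted p = 0.00073) and with the length trend removed (0.033), and its siKEAP1/siCCNF difference (-0.25, SE 0.11, adjusted p = 0.077) passed without siCONTROL replicate 1 (0.018), without siKEAP1/siCCNF replicate 2 (0.028) and without both libraries (0.0052). Ncapg, a HEAT-repeat subunit, followed Ncaph with -1.18 after siCCNF and -0.25 (not called) after siKEAP1, which passed without siKEAP1/siCCNF replicate 3 (adjusted p = 0.0497) and without both libraries (0.0095), while Smc4, the partner of Smc2, differed by -0.55 after siKEAP1 and -0.87 after siCCNF. Ncapd2, the remaining HEAT-repeat subunit, differed by -0.29 and -0.94. Top2a, the topoisomerase that untangles sister chromatids, stood at 571, 682 and 681 CPM in siCONTROL, 364, 382 and 376 after siKEAP1, 372, 434 and 409 after siCCNF, and 438, 470 and 380 after siKEAP1/siCCNF, so that all depleted groups overlapped each other in part and lay below siCONTROL (58.0%, 62.8% and 66.6% of its mean).

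The same unevenness stood in the ratios of FPKM, which are per length and so compare levels between genes. The ratio of Ncaph to Smc2 was 0.65 ± 0.095 (SD, n = 3) in siCONTROL, 0.636 ± 0.027 after siKEAP1, 0.363 ± 0.031 after siCCNF and 0.409 ± 0.084 in the double depletion. The ratio of Ncapg to Smc2 went from 0.316 ± 0.015 and 0.296 ± 0.021 to 0.193 ± 0.015 and 0.193 ± 0.0086 in the same order. Both ratios in all CCNF-depleted libraries thus lay below those of the other libraries. Ncapd2 to Smc2 did not separate in this way, at 0.798 to 0.865 in siCONTROL, 0.724 to 0.765 after siKEAP1, 0.580 to 0.605 after siCCNF and 0.586 to 0.814 after siKEAP1/siCCNF. The last group had a mean of 0.664 ± 0.13, and its highest library overlapped siCONTROL. Smc4 to Smc2 instead was 1.68 ± 0.083 in siCONTROL and 1.28 ± 0.044, 1.27 ± 0.020 and 1.21 ± 0.11 in the depletions, with all depleted libraries below all siCONTROL libraries. In the NDC80 complex, Spc24 to Spc25 was 1.37 ± 0.082 in siCONTROL and 1.03 ± 0.048, 1.06 ± 0.038 and 1.02 ± 0.063 in the depletions. Ndc80 to Nuf2 was lowest after siKEAP1 at 0.657 ± 0.062 and highest after siCCNF at 0.884 ± 0.039, against 0.795 ± 0.023 in siCONTROL. Ccnb1 to Cdk1 was 0.940 to 1.12 in siCONTROL and 1.03 to 1.06 after siKEAP1. It was 0.919 to 0.942 after siCCNF and 0.864 to 1.02 after siKEAP1/siCCNF. Each depleted group thus overlapped siCONTROL, but all CCNF-depleted libraries lay below all siKEAP1 libraries. Aurkb to Birc5 overlapped between siCONTROL (0.730 to 0.914) and the depleted libraries (0.695 to 0.932). No test was run on these ratios. Division by gene length does not remove the shortage of long transcripts in siCONTROL replicate 1 and siKEAP1/siCCNF replicate 3. In both libraries Smc2 had the lowest CPM of its group, and the part of this in the ratios to Smc2 was not tested.

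**Figure D4:**
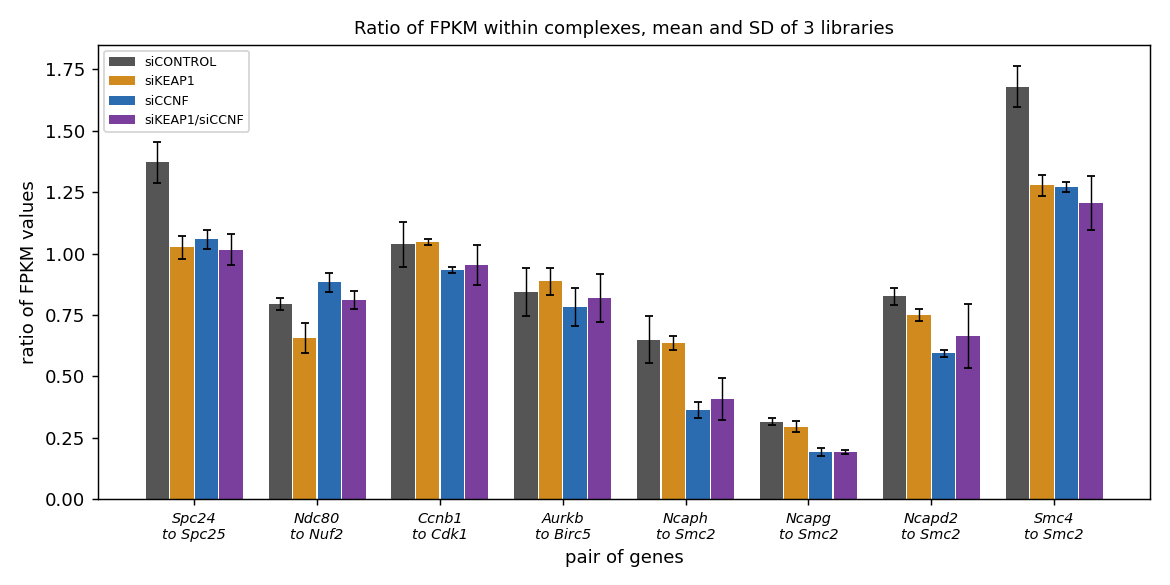
Ratio of FPKM values of gene pairs that work in 1 complex, as the mean (bar) and SD (line) of 3 libraries for each siRNA group. The ratios of Ncaph and Ncapg to Smc2 are lower in both CCNF-depleted groups, those of Smc4 to Smc2 and Spc24 to Spc25 in all depleted groups, and Ccnb1 to Cdk1 overlaps between siCONTROL and the depleted groups.

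Both transcription factors of the set were lower in each depletion. Foxm1, the forkhead factor of G2 genes, stood at 160, 185 and 182 CPM in siCONTROL, 126, 125 and 129 after siKEAP1, 103, 111 and 107 after siCCNF, and 132, 129 and 120 after siKEAP1/siCCNF. Mybl2, encoding B-MYB, stood at 40.9, 42.2 and 40.8 CPM, then 19.3, 19.4 and 19.1, then 21.9, 25.6 and 24.7, and 24.5, 24.7 and 25.5. Mybl2 was lowest after siKEAP1, with all of its siKEAP1 libraries below all siCCNF libraries, whereas Foxm1 was lowest after siCCNF. The siKEAP1 and siCCNF differences were -0.47 (SE 0.07) and -0.71 (SE 0.07, adjusted p = 2.3e-06) for Foxm1 and -1.10 (SE 0.07, adjusted p = 1e-07) and -0.78 (SE 0.07, adjusted p = 1.5e-06) for Mybl2.

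Set against each other, siCCNF left 35 of the 45 genes lower than siKEAP1 did (29.9% of all genes tested were lower) and 2 higher, Mybl2 and Bub3 (27.8% of all genes were higher). The median log2 difference of siCCNF against siKEAP1 was -0.53, against 0.01 over all genes. The 2 higher genes differed by 0.32 (SE 0.07, adjusted p = 0.0019) for Mybl2 and by 0.26 (SE 0.07, adjusted p = 0.0089) for Bub3. By role, all 5 genes of the CDK1 switch (median -0.64), all 4 other kinases (-0.46), all 3 cytokinesis genes (-0.62) and 5 of 6 condensin and topoisomerase genes (-0.49) were lower after siCCNF than after siKEAP1, but 3 of 7 kinetochore genes (-0.14): Nuf2, Cenpa and Ndc80. The call of Ndc80 (-0.18, SE 0.07, adjusted p = 0.042) was lost in 12 of 22 alternatives, among them without any 1 library of siCCNF or siKEAP1/siCCNF, siCONTROL replicate 2 or siKEAP1 replicate 2 or 3 (adjusted p 0.050 to 0.21), and that of Smc2 (-0.32, SE 0.11, adjusted p = 0.022) without any 1 siKEAP1 library or siCCNF replicate 1 or 3 (0.051 to 0.098). The largest differences after Cdc25b were those of Ncaph (-1.12, SE 0.08, adjusted p = 6.2e-08) and Cdc25c (-1.06, SE 0.12, adjusted p = 5.3e-06). The 8 genes that did not pass in either direction were Birc5, Spc24, Spc25, Cenpe, Cenpf, Ckap5, Espl1 and Top2a.

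Whether siKEAP1 acted alike with and without CCNF was asked of the double depletion. Against siCCNF, siKEAP1/siCCNF left 19 of the 45 genes higher (3.00% of all genes tested) and 0 lower by edgeR at an adjusted or unadjusted p under 0.05, DESeq2 or limma (2.19% of all genes were lower), with a median log2 difference of 0.26 against 0.00 over all genes. The larger rises were those of Cdc25c (0.49, SE 0.12, adjusted p = 0.03), Pttg1 (0.42, SE 0.11, adjusted p = 0.035) and Plk1 (0.38, SE 0.07, adjusted p = 0.0098). All 4 of the other mitotic kinases were among the 19, as were 3 of the CDK1 switch (Ccnb1, Ccnb2 and Cdc25c) and 3 of the passenger complex (Aurkb, Cdca8 and Incenp). The rises were small and the count moved with single libraries, to 12 without siKEAP1 replicate 1, 1 without siCCNF replicate 1 (Ccnb1), 12 without siCCNF replicate 2, 5 without siCCNF replicate 3 and 3 without siKEAP1/siCCNF replicate 2. It was 38 without siCONTROL replicate 1 and siKEAP1/siCCNF replicate 3, and 8 when the libraries compared were fitted alone, while the median stayed between 0.23 and 0.28 in all of these and in the other alternatives. Keap1 mRNA was higher in siKEAP1/siCCNF than in siKEAP1 cells (27.5% and 14.4% of control). Ccnf mRNA was likewise higher in siKEAP1/siCCNF than in siCCNF cells (30.2% and 25.3% of control). The part of these depletion levels in the rises was not tested.

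Against siKEAP1, siKEAP1/siCCNF left 24 genes lower (26.9% of all genes tested) and 3 higher (24.1% of all genes), Bub3, Espl1 and Mybl2, with a median of -0.23 against 0.00 over all genes. Cdc25b (-1.01, SE 0.06, adjusted p = 2.3e-08), Ncaph (-0.76, SE 0.08, adjusted p = 3.4e-06) and Ncapg (-0.71, SE 0.12, adjusted p = 0.00029) were the most reduced. The higher ones differed by 0.37 (SE 0.07, adjusted p = 0.00086) for Mybl2, 0.31 (SE 0.09, adjusted p = 0.013) for Espl1 and 0.25 (SE 0.07, adjusted p = 0.013) for Bub3, and their number was 6 without siCONTROL replicate 1 and 1 without siKEAP1 replicate 3, where Bub3 (adjusted p = 0.062) and Espl1 (0.060) lost the call.

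The test of the difference itself, the interaction, subtracts the log2 change that siKEAP1 made next to siCONTROL from the change it made on top of siCCNF. It was above 0 for all 45 genes and passed the test for 39 (10.6% of all genes tested were called above 0), while 0 were called below 0 by edgeR at an adjusted or unadjusted p under 0.05, DESeq2 or limma (10.5% of all genes). The median was 0.73 on the log2 scale, against 0.01 over all genes. Over 2-fold were Spc24 (1.23, SE 0.15, adjusted p = 0.00011), Mybl2 (1.15, SE 0.10, adjusted p = 1.1e-05), Cenpa (1.05, SE 0.10, adjusted p = 1.9e-05) and Cdca8 (1.03, SE 0.13, adjusted p = 0.00012), 4 genes of 45 where 2.12% of all genes were. Birc5 (0.96, SE 0.16, adjusted p = 0.00098), Ndc80 (0.93, SE 0.10) and Aurkb (0.93, SE 0.11) followed. For Spc24 and Mybl2, siKEAP1 lowered the mRNA by over 2-fold in control cells, and in CCNF-depleted cells the difference it made did not pass the test (adjusted p = 0.48 and 0.79). By role the median interaction was highest in the passenger complex (0.94), the transcription factors (0.93) and the kinetochore (0.87) and lowest in cytokinesis (0.49) and the spindle (0.53), with condensin at 0.59 and the CDK1 switch at 0.81.

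**Figure D5:**
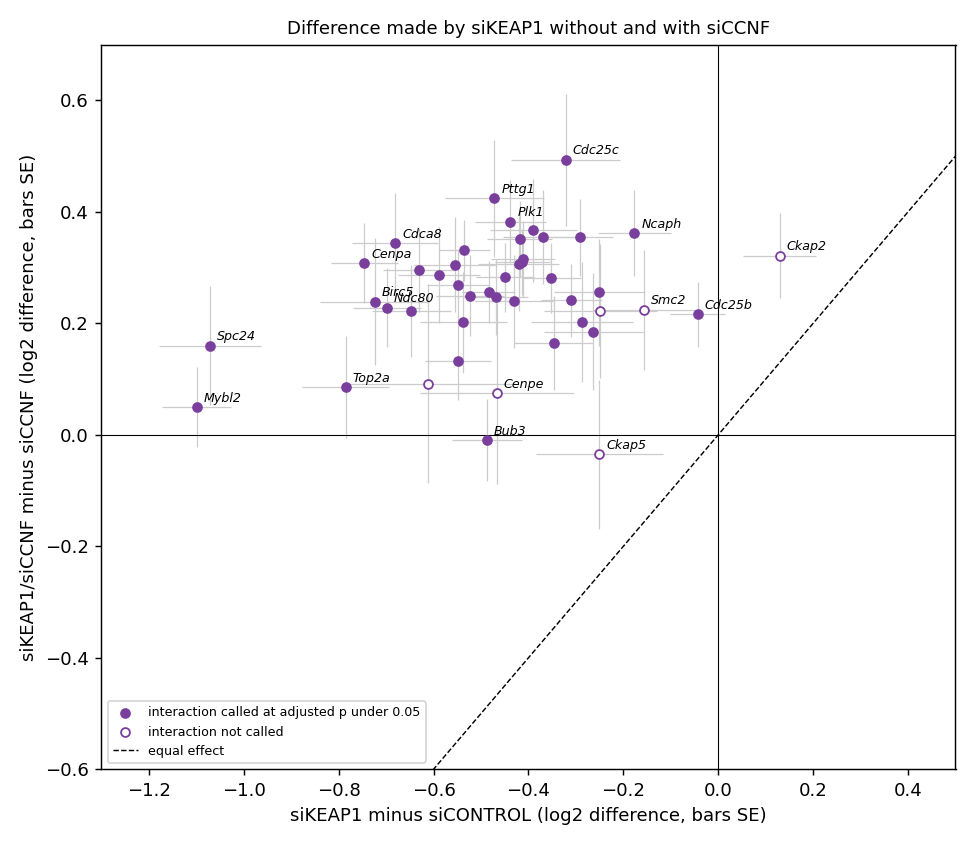
Each point is a gene, placed by the log2 difference made by siKEAP1 in control cells (horizontal axis) and in CCNF-depleted cells (vertical axis), with standard errors as lines; filled points passed the test of the interaction, and the dashed line marks equal differences. All 45 points lie above the dashed line, and the axes share no library.

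Not called in the interaction were Cenpe, Cenpf, Ckap2, Ckap5, Smc2 and Ncapg. Cenpe, Cenpf and Smc2 passed without siCONTROL replicate 1 (adjusted p = 0.018, 0.0018 and 0.031) and without siKEAP1/siCCNF replicate 3 (0.021, 0.018 and 0.0075), as did Ncapg (0.041 and 0.013). Without both libraries low in long transcripts Ckap5 passed too (0.50, adjusted p = 4.5e-05). So did Cenpe (1.8e-05), Cenpf (6.0e-08), Smc2 (1.4e-05) and Ncapg (0.0012) in that setting. With the length trend removed Ckap5 also passed (0.35, adjusted p = 0.016). Ckap2 passed in 0 of 21 alternatives. The calls of Cdc25b (0.26, SE 0.08, adjusted p = 0.039), Ect2 (0.49, SE 0.15, adjusted p = 0.036) and Anln (0.45, SE 0.15, adjusted p = 0.048) were the weakest and were lost in 10, 9 and 14 of 21 alternatives. For these 3 genes the libraries whose omission ended the call were 8, 9 and 10 of the 12, with adjusted p of 0.055 to 0.11.

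In siCONTROL cells the 45 genes spanned FPKM levels from 8.85 ± 0.19 (Mybl2; SD, n = 3) to 93.7 ± 9.65 (Ccnb2), with Top2a (71.0), Smc4 (65.4) and Ube2c (55.0) next below Ccnb2. Cenpf (12.2), Dlgap5 (12.1), Ncapg (12.3) and Cdc25c (12.6) stood low and did not differ beyond their spread. The subunits of 1 complex were not at 1 level: in condensin I, Smc4 stood at 65.4, Smc2 at 39.1, Ncapd2 at 32.2, Ncaph at 25.1 and Ncapg at 12.3 FPKM, and in the NDC80 complex Spc24 at 37.7, Spc25 at 27.4, Nuf2 at 17.0 and Ndc80 at 13.5 FPKM. After siCCNF, Ccnb2 (54.9 FPKM) was still the highest and Cdc25c (4.83 FPKM) the lowest.

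Counts in other lists of these pathways ranged from most of a list to shares near those of all genes tested. Of all genes tested, 25.5% were lower and 22.5% higher after siCCNF, and 20.2% lower and 20.4% higher after siKEAP1. Of 33 other kinetochore and centromere genes, 31 were lower after siCCNF (median -0.75) and 16 after siKEAP1 (median -0.30), where 1, Zwint, was higher (0.64). The largest fall was that of Cenpp after siCCNF (-1.45) and of Ska1 after siKEAP1 (-1.02). Condensin II, with Ncapg2, Ncaph2 and Ncapd3, had 2 of 3 genes lower after siCCNF (median -0.53) and 0 after siKEAP1 (median -0.22; largest difference Ncapg2, -0.34, adjusted p = 0.062). Cohesin, which holds sister chromatids together, had 5 of 9 lower after siCCNF (median -0.29), led by Cdca5, encoding sororin (-0.95), and 3 after siKEAP1 (median -0.08). Of 13 other spindle genes 10 were lower after siCCNF (median -0.84) and 9 after siKEAP1 (median -0.39), and of 6 other cytokinesis genes 5 and 5 (medians -0.88 and -0.47).

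Of 16 other kinases and regulators of mitotic entry, 12 were lower and 4 higher after siCCNF (median -0.51), where 22.5% of all genes tested were higher. Their differences ran from Mastl, the Greatwall kinase (-1.57), to Nek6 (1.02). After siKEAP1, 10 were lower (median -0.44), and Haspin fell most (-1.10). Of 12 genes of the DREAM, MuvB and NF-Y complexes, 10 were lower and 2 higher after siCCNF (median -0.55), from Tfdp1 (-1.12) to Nfya (1.03), and 6 were lower after siKEAP1 (median -0.17). For comparison, 35 of 36 replication genes were lower after siCCNF (median -0.85) but 17 after siKEAP1 (median -0.18), and the interaction was called above 0 for 23 of them (median 0.51). Of 16 subunits and activators of the anaphase-promoting complex, 7 were lower after siCCNF (median -0.08), with the activator Cdc20 the most reduced (-1.40), and 9 after siKEAP1 (median -0.30). The interaction was above 0 and called for 23 of the 33 other kinetochore genes (median 0.56), 5 of 6 other cytokinesis genes (0.77), 8 of 13 other spindle genes (0.60) and 4 of 16 genes of the anaphase-promoting complex (0.26). Over all genes tested it was called above 0 for 10.6%.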

How the data were processed

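The authors deposited 1 table with read counts and FPKM values per gene and library and gene lengths. The submitters' notes name HISAT2 and GRCm39, while the table's coordinates are those of GRCm38, and the counting tool is not given in the sources used here. Columns with the authors' own comparisons (group means, log2 fold changes, p-values) were not used. Counts were filtered (filterByExpr), scaled by TMM and fitted for 12 libraries and 4 groups with edgeR 4.0.16 (R 4.3.3) by the quasi-likelihood test, with Benjamini-Hochberg adjustment over 15122 genes. The 26448 genes without a count in any library were among those removed. The scripts were tested on simulated data. DESeq2 1.42.0, limma 3.58.1 on log2(FPKM + 1) or log2(FPKM + 0.1), other filters and scalings, a correction for gene length, a replicate block and the omission of each library were alternatives. FPKM was used for levels between genes and their ratios. Depth was 18464209 to 37743198 counts.

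The members and lists were chosen with earlier results of these data known. Values per library were given, by rule, for the genes with the largest and smallest siCCNF difference of each role, the 6 largest interactions, and Cdk1, Ccnb1, Plk1, Aurkb, Foxm1 and Mybl2. Cdc25b, Top2a and other genes outside the rule were singled out after their values were seen. Promoter windows came from RefSeq (GRCm38.p6).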

Additional observations from a re-analysis of the deposited data

Results flagged for a closer look

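For 39 of the 45 genes the effect of siKEAP1 differed between control and CCNF-depleted cells by the test of the interaction (edgeR, adjusted p under 0.05), and all were flagged for that reason. The log2 interaction was 0.86 for Cdk1, 0.87 for Ccnb1, 0.72 for Ccnb2, 0.26 for Cdc25b and 0.81 for Cdc25c in the CDK1 switch. Among the other kinases it was 0.82 for Plk1, 0.82 for Aurka, 0.63 for Nek2 and 0.74 for Melk. In the passenger complex it was 0.93 for Aurkb, 0.96 for Birc5, 1.03 for Cdca8 and 0.73 for Incenp. In the checkpoint it was 0.67 for Bub1, 0.73 for Bub1b, 0.48 for Bub3, 0.73 for Mad2l1 and 0.77 for Ttk. At the kinetochore it was 0.93 for Ndc80, 0.77 for Nuf2, 1.23 for Spc24, 0.87 for Spc25 and 1.05 for Cenpa. Among spindle genes it was 0.72 for Tpx2, 0.51 for Hmmr, 0.55 for Dlgap5 and 0.87 for Tacc3, and in cytokinesis 0.51 for Prc1, 0.45 for Anln and 0.49 for Ect2. Genes of chromatid separation had 0.74 for Espl1, 0.90 for Pttg1 and 0.76 for Ube2c, and condensin and topoisomerase 0.68 for Smc4, 0.65 for Ncapd2, 0.54 for Ncaph and 0.87 for Top2a. The transcription factors had 0.72 for Foxm1 and 1.15 for Mybl2. Keap1 mRNA stood at 14.4% of control after siKEAP1 and 27.5% after siKEAP1/siCCNF. Ccnf mRNA stood at 25.3% of control after siCCNF and 30.2% after siKEAP1/siCCNF. The part of these levels in the interactions was not tested. Groups of 3 libraries are too small for the test of a single library far from the others.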

How the results depend on the processing

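Over 22 alternatives (21 for the interaction) other than a 2-fold threshold, the genes lower than siCONTROL numbered 33 to 43 after siKEAP1, 43 to 45 after siCCNF and 38 to 44 after siKEAP1/siCCNF, those lower after siCCNF than after siKEAP1 32 to 37, and those with a called interaction 36 to 44. Leaving out 1 library gave 33 to 40, 43 to 44, 40 to 44, 33 to 35 and 36 to 43 in the same order, 20 to 25 genes lower in siKEAP1/siCCNF than in siKEAP1 and 1 to 6 higher, and 1 to 28 higher in siKEAP1/siCCNF than in siCCNF. With a 2-fold threshold added, 2, 17 and 2 genes were lower than siCONTROL after siKEAP1, siCCNF and siKEAP1/siCCNF, 0 were higher in siKEAP1/siCCNF than in siCCNF, 1 was lower and 0 higher in siKEAP1/siCCNF than in siKEAP1, 3 were lower and 0 higher after siCCNF than after siKEAP1, and 4 had a called interaction. The 19 genes higher in siKEAP1/siCCNF than in siCCNF became 12 with a replicate block, 38 without both libraries low in long transcripts and 8 when the compared libraries were fitted alone. Genes higher in siKEAP1/siCCNF than in siKEAP1 became 7 with the length trend removed and 6 without both libraries, and those higher after siCCNF than after siKEAP1 became 5 and 4. Removing the length trend moved the median difference of siKEAP1 from siCONTROL to -0.54, of siKEAP1/siCCNF from siKEAP1 to -0.13 and of siCCNF from siKEAP1 to -0.41. The cause was not tested. Among the uncalled differences that changed sign was a pair given above. For Spc24, siCCNF against siKEAP1 gave -0.0167 without TMM and -0.020 to 0.073 with 1 library left out. For Spc25, siCCNF against siKEAP1 gave 0.099 with the length trend removed and -0.027 to 0.0010 with 1 library left out. Of 6885 recomputed differences 53 changed sign, 0 of them called. Whether the replicate numbers pair the samples was not settled. Among 18 same-numbered pairs the correlation of deviations was -0.268 to 0.204 and exceeded 0.1 in 4. Among 36 other-numbered pairs it was -0.276 to 0.390 and exceeded 0.1 in 5. The replicate block changed no count by over 1.5 times besides the 12 above. The spread between libraries limits the small rises of siKEAP1/siCCNF over siCCNF most.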
